A study of Mus musculus with 19 samples.

Results

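A pseudogene is a copy of a gene that has lost the ability to make the protein of its parent. An unprocessed pseudogene arose by duplication of DNA, so that it usually keeps introns and often the start region of the gene it was copied from, whereas a processed pseudogene is a reverse-transcribed copy of an mRNA. Transcribed unprocessed pseudogenes are those of the first kind for which an annotator has seen RNA, and some are made into long spliced transcripts in the brain. Because copies arise next to each other, such genes often lie in the clusters of repeated genes where large families of zinc finger, receptor and immune genes are found. Wiz (widely-interspaced zinc finger motifs) is a zinc finger protein known as a partner of the histone methyltransferases G9a and GLP, and the question asked of these genes was whether they respond as a class to the loss of 1 copy of Wiz.

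The genes described are those of GENCODE M21 type transcribed unprocessed pseudogene with a mean raw count of at least 20 over 16 RNA-seq libraries, other than 4 named genes of the type, left out by a rule that was written with earlier results of these data known. They number 22 of the 41388 gene identifiers counted. GENCODE M21 holds 253 genes of the type, of which 174 had a row in the count tables, 92 had at least 1 read and 26 reached the count threshold with the 4 left-out genes (2610005L07Rik, 6820431F20Rik, Pisd-ps1 and Pisd-ps2) included. The members were thus chosen by their mean raw count, which is not a result. Just inside the threshold were Gm6939 with a mean raw count of 24.4, Gm6264 with 24.0 and Gm7609 with 23.9, and just outside were Gm45784 with 19.9, Gm18775 with 18.8 and Gm2420 with 16.7. The mean reached 20 in brain and in cerebellum for 16 members, in brain alone for 4 (Nlrp5-ps, Zfp125, Gm18733 and Gm6264) and in cerebellum alone for 2 (Gm20257 and Gm6939).

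Poly-A RNA was sequenced from whole embryonic brain at E13.5 and from the cerebellum of adult males at 56 days. The groups were brains of male embryos (3 Wiz+/+ and 3 WizMommeD30/+), brains of female embryos (2 and 2) and cerebellums (3 and 3). WizMommeD30 is an allele of Wiz that came from a chemical (ENU) mutagenesis screen, and heterozygotes carry it beside a normal copy. The labels give the strain as FVB, and the line was kept by crosses to Line3, a strain on FVB/NJ that is homozygous for a GFP transgene driven by a human α-globin promoter, so that both genotypes share that background. Embryos came from intercrosses of heterozygotes, and the allele is present in every cell of the animal. The labels do not say which embryos were littermates.

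The libraries held 16386029 to 50459755 counted reads, of which 2687 to 8320 fell on the 22 members. Levels are given as CPM, the counts of a gene brought to a common library size, with library sizes scaled by the trimmed mean of M values (TMM). The sums of marker genes, here and below, are CPM without the TMM scaling. A gene was called where edgeR's quasi-likelihood test gave a Benjamini-Hochberg adjusted p of at most 0.05 over all genes tested and a fold change below 0.7 or above 1.3. Wiz itself was at 172.6 to 189.9 CPM in the 3 Wiz+/+ male brains against 111.7 to 119.0 CPM in the 3 WizMommeD30/+ male brains, at 175.8 and 183.9 against 121.7 and 120.0 CPM in female brains, and at 104.4 to 105.3 against 73.1 to 74.7 CPM in cerebellum. The genotypes did not overlap for Wiz in any of these groups. In cerebellum Wiz itself was not called, with a log2 fold change of -0.50 (edgeR adjusted p = 9.9e-08) and a fold of 0.706, just inside the limit. The study, with DESeq, listed Wiz among the genes lower in cerebellum. The summed level of 6 cerebellar marker genes was 5267 to 5479 CPM in the cerebellums and 355.0 to 425.7 CPM in the brains, while 6 genes of the embryonic brain summed to 307.4 to 522.9 CPM in the brains and 49.0 to 64.2 CPM in the cerebellums. In whole tissue, fewer cells of a type and less RNA per cell cannot be told apart.

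The members were compared first with the protein-coding genes they resemble. A coding relative, taken here as the protein-coding gene matching at least 30% of the member's transcript at 70% identity or more, was found for 21 of the 22, and the exception was Ppp4r1l-ps. The identity ran from 70.3 to 99.5% with a median of 90.2%, and in 18 cases the relative lay on the same chromosome. A gap that shifts the reading frame or a stop codon in frame was found in 16 members, and in 17 the longest open reading frame was under 50% as long as the relative's coding sequence. Some transcripts were too short to hold a frame of that length, such as Gm20257 with 130 bases beside 480 codons of Casp8. Frames without a stop codon were not counted. Open reading frames were not a criterion of the choice, so these features describe the annotation class and not the selection by level.

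The sequences of 4 members are shown beside their relatives because each shows a different degree of decay, and because 3 of them come back in the comparisons between genotypes. All were read from the reference strain (GRCm38), not from the mice of the study. In 1810014B01Rik, the 204 bases matching the whole coding sequence of 1190007I07Rik, which encodes a small protein, held 2 premature stop codons. They lie on the plus strand in 2 exons, chr10:86685889-86685996 and chr10:86688534-86688629. Capitals mark the codons that are stops in the pseudogene and the codons at the same place in the coding gene.
1810014B01Rik: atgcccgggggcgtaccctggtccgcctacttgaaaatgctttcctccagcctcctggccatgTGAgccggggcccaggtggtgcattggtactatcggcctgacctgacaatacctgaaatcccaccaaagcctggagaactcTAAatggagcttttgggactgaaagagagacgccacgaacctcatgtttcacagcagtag
1190007I07Rik: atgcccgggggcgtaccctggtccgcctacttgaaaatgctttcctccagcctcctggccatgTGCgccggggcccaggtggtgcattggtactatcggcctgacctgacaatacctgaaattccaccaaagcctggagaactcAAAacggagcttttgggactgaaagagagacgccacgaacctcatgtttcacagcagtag

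The substitutions at these codons were C66A and A145T, with positions counted from 1 at the first base of the relative's start codon and the relative's base given first. The 2 sequences differed at 4 bases in all. 3110053B16Rik resembles Hpcal1, which encodes a calcium-sensing protein of neurons, and its stretch at chr12:20876890-20876952 on the minus strand held the substitution C156G, which makes a stop, and lacked 3 bases of the relative. Ube2d-ps resembles Ube2d1, a ubiquitin-conjugating enzyme, and reads a stop through C402A at the end of its match, across chr11:5782250-5782278 and chr11:5783892-5783925 on the plus strand. Capitals again mark the stop and its counterpart.
3110053B16Rik: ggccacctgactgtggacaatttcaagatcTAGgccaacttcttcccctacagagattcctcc
Hpcal1: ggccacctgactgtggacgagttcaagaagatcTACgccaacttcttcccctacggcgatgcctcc
Ube2d-ps: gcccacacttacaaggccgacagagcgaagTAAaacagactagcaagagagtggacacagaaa
Ube2d1: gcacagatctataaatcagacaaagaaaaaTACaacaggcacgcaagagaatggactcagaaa

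Nlrp5-ps is a copy of part of Nlrp5, a gene of the oocyte that is needed by the early embryo. The 120 bases shown lie on the minus strand at chr7:14582992-14583053 and chr7:14581047-14581104 and differ from Nlrp5 at 6 bases, which are in capitals.
Nlrp5-ps: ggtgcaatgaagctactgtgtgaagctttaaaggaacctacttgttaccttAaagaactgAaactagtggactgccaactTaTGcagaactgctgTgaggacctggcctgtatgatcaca
Nlrp5: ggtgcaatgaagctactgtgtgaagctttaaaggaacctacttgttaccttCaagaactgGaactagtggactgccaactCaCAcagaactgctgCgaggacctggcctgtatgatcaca

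How far a read can be placed on a copy depends on such differences. Each member's exons were read in windows of 100 bases, the read length, and the share of windows found once in the genome was counted. The median over the members was 94.98%, and 11 members were above 95%. Below 50% were Tmem181b-ps with 49.5%, Gm7609 with 35.0% and Gm6264 with 21.7%. Nlrp5-ps was at 96.9%, and 3110053B16Rik at 93.1%. How reads matching more than 1 place were counted is not given in the sources used here, so the levels of these 3 genes are uncertain.

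Exons of 9 members overlap an exon of another gene. Zfp125, a pseudogene of the zinc finger family, and 3110053B16Rik share a start and 560 exonic bases on the same strand of chromosome 12, so reads on the shared bases could belong to either. Nlrp5-ps shares 1757 of its 4335 exonic bases (40.5%) with Vmn1r90, a vomeronasal receptor gene of the same strand. Gm6939 shares 25.4% of its exonic bases with Slx1b, a DNA repair gene, and 1810014B01Rik shares 15.7% with Hsp90b1, an abundant chaperone gene on the opposite strand. Whether counting used the strand is not given in the sources used here.

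In the brain of male embryos, 0 of the 22 members were called between WizMommeD30/+ and Wiz+/+, where 0.184% of 16848 genes were called. In female brain the count was also 0 of 22, beside 0.111% of 17152 genes. In cerebellum it was 0 of 20, beside 0.832% of 15979 genes, since Nlrp5-ps and Zfp125 had too few counts to be tested there. With both sexes in a single fit, 0 of 22 members were called in brain, beside 0.346% of 17620 genes. DESeq2 called Nlrp5-ps in female brain and in brain of both sexes, and 0 members in male brain and in cerebellum. The study, which used DESeq at the same limits, listed Nlrp5-ps as lower in female WizMommeD30/+ brain. It did not list that gene in male brain. Beside background shares this small, a count of 0 or 1 among 22 is not a result about the members.

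The median log2 fold change of the members was -0.02 in the brain of males, -0.05 in that of females, 0.03 in cerebellum and -0.0084 in brain of both sexes, beside 6.1e-05, 0.00015, -0.0031 and -0.00052 for all genes tested. In male brain 12 members were below and 10 above 0, in female brain 11 and 11, and in cerebellum 7 and 13. The 95% interval lay wholly inside the fold limits of 0.7 and 1.3 for 10 of 22 members in male brain, 6 of 22 in female brain, 7 of 20 in cerebellum and 10 of 22 in brain of both sexes. For these members a change as large as the fold limits was outside the interval. They included the most abundant members, such as Ppp4r1l-ps, Zfp783 and Ube2d-ps, which had standard errors of 0.0489 to 0.0599 on the log2 scale in male brain, whereas the median standard error of the members was 0.131 there and 0.213 in female brain.

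**Figure D1:**
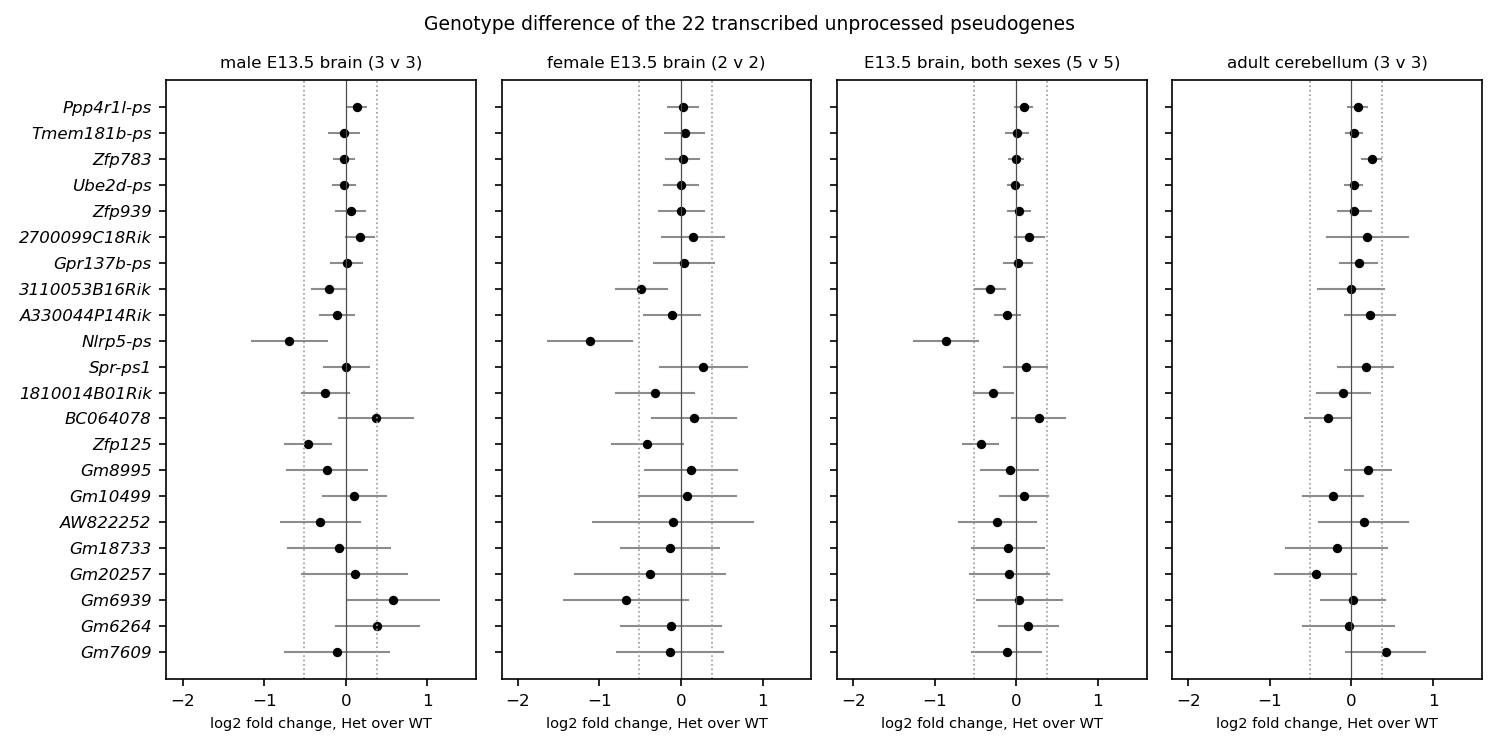
Log2 fold change of WizMommeD30/+ over Wiz+/+ for the 22 members in male brain, female brain, brain of both sexes and cerebellum, with points for the edgeR estimate, bars for the 95% interval and dotted lines at the fold limits 0.7 and 1.3. Members are ordered by mean count, Nlrp5-ps and Zfp125 were not tested in cerebellum, and Nlrp5-ps stands lowest in each of the 3 brain panels with -0.69, -1.11 and -0.86.

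At an unadjusted p below 0.05 there were 5 members in male brain (2 lower and 3 higher in WizMommeD30/+), where 8.45% of all genes were at that level. In female brain there were 2, both lower, beside 6.4% of all genes in either direction and 3.68% lower. In cerebellum there were 2, 1 in each direction, beside 19.9%. In brain of both sexes there were 4, all lower, beside 11.8% in either direction and 6.85% lower. The values of the 2 genotypes did not overlap for 5 of 22 members in male brain (22.7%, beside 12.4% of all genes), for 8 of 22 in female brain (36.4% beside 36.0%) and for 4 of 20 tested in cerebellum (20% beside 24.0%). Of the 8 in female brain, 7 were lower in WizMommeD30/+ and 1 was higher, beside 18.0% of all genes in each direction. The sign of the fold change was shared between male and female brain, which come from separate embryos, by 15 of 22 members (68.2%, beside 59.3% of all genes). Between male brain and cerebellum it was shared by 9 of 20 members (45.0%, beside 57.2%), and between female brain and cerebellum by 14 of 20 (70%, beside 52.9%).

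Nlrp5-ps (chr7:14530652-14622479, minus strand) had the lowest fold change of the members in both sexes. In male brain it was at 7.53, 5.45 and 4.33 CPM in Wiz+/+ and at 4.54, 3.72 and 2.63 CPM in WizMommeD30/+. In female brain it was at 5.68 and 6.69 CPM in Wiz+/+ and at 2.20 and 3.5 CPM in WizMommeD30/+. The ranges overlapped in males, where the lowest Wiz+/+ brain was below the highest WizMommeD30/+ brain, and did not overlap in females. The log2 fold change was -0.69 (SE 0.211, adjusted p = 0.366) in males and -1.11 (SE 0.221, adjusted p = 0.424) in females by edgeR's quasi-likelihood test. With both sexes it was -0.86 (SE 0.182, n = 5 and 5, edgeR adjusted p = 0.066), a fold of 0.55 with a 95% interval of 0.419 to 0.722. The gene was thus outside the threshold, although the interval excluded 1. In males the log2 fold change was -0.37 (edgeR adjusted p = 0.736) without Wiz+/+ replicate 1, and over the 6 fits that each left out 1 male library it ran from -0.89 to -0.37 (edgeR adjusted p 0.143 to 0.773).

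Some marker lists of other cells did not overlap between the genotypes in female brain, where 36.0% of all genes did not overlap. In Wiz+/+ against WizMommeD30/+ female brains, 4 blood genes summed to 356.0 to 420.1 against 294.3 to 335.2 CPM, 3 microglia genes to 47.6 to 48.9 against 42.1 to 43.5 CPM and 2 endothelial genes to 86.8 to 87.8 against 74.9 to 81.5 CPM. The 6 genes of the embryonic brain went the other way, with 307.4 to 407.8 against 427.1 to 452.5 CPM. These 4 lists overlapped between genotypes in male brain, where the 6 cerebellar genes did not (355.0 to 391.3 against 397.7 to 412.0 CPM). The other lists overlapped in female brain. Choroid plexus genes summed to 196.4 to 418.6 against 216.9 to 313.0 CPM and oligodendrocyte genes to 60.2 to 68.0 against 60.6 to 65.3 CPM. The cerebellar genes summed to 366.1 to 425.7 against 400.4 to 400.9 CPM. No gene of the blood, microglia, endothelial or embryonic brain lists was at 0 in every female library. The part of these cells in the values of the members was not tested.

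The call of Nlrp5-ps depended on the setting. In brain of both sexes it passed the threshold without the filter on low counts (edgeR adjusted p = 0.00144), with DESeq2 (adjusted p = 0.00128), without male Wiz+/+ replicate 3 (edgeR adjusted p = 0.0244) and without male WizMommeD30/+ replicate 1 (edgeR adjusted p = 0.0386). Over the 10 fits that each left out 1 library, the adjusted p ran from 0.0244 to 0.286 and the log2 fold change from -0.99 to -0.73. In females it passed with DESeq2. Over the 4 fits that each left out 1 female library, its log2 fold change ran from -1.49 to -0.82. Each of these fits had 1 library left in a genotype. In cerebellum Nlrp5-ps had raw counts of 9, 15 and 14 in Wiz+/+ and of 6, 7 and 6 in WizMommeD30/+, under the filter, and a fit without the filter gave a log2 fold change of -0.95 (SE 0.415, edgeR adjusted p = 0.214).

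Vmn1r90, which shares exonic bases with Nlrp5-ps, was at 0.415 to 1.13 CPM in male brain. Its log2 fold change was -0.77 in males, -0.81 in females and -0.78 (SE 0.225, edgeR adjusted p = 0.193) in both sexes. How reads on the shared bases were counted is not given, so whether these values are separate from those of Nlrp5-ps was not tested. Nlrp5 itself, the coding relative on the same chromosome, was at 0.0 to 0.171 CPM in all 16 libraries and could not be tested.

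Zfp125 (chr12:20877084-20921262, minus strand) had the next lowest fold change in male brain and in brain of both sexes, while in female brain those of Gm6939 and 3110053B16Rik were lower. In male brain it was at 3.09, 2.38 and 2.95 CPM in Wiz+/+ and at 2.06, 2.10 and 2.13 CPM in WizMommeD30/+. In female brain it was at 2.39 and 2.70 CPM in Wiz+/+ and at 1.71 and 2.12 CPM in WizMommeD30/+. The genotypes did not overlap in either sex. The log2 fold change was -0.46 (SE 0.129, edgeR adjusted p = 0.297) in males, -0.41 (SE 0.184, edgeR adjusted p = 0.786) in females and -0.44 (SE 0.0982, edgeR adjusted p = 0.0924) in both sexes, outside the threshold each time.

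3110053B16Rik (chr12:20874125-20921262, minus strand), which begins at the same base as Zfp125, was at 6.31, 5.56 and 6.34 CPM in Wiz+/+ and at 4.80, 5.64 and 5.59 CPM in WizMommeD30/+ male brains. In female brains it was at 6.78 and 7.09 CPM against 4.56 and 5.34 CPM. The genotypes overlapped in males and not in females. The log2 fold change was -0.20 (SE 0.0974) in males, -0.49 (SE 0.133, edgeR adjusted p = 0.773) in females and -0.32 (SE 0.0831, edgeR adjusted p = 0.149) in both sexes. Its coding relative Hpcal1, on the same chromosome, had -0.15 (SE 0.0461, edgeR adjusted p = 0.239) in both sexes, also outside the threshold.

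**Figure D2:**
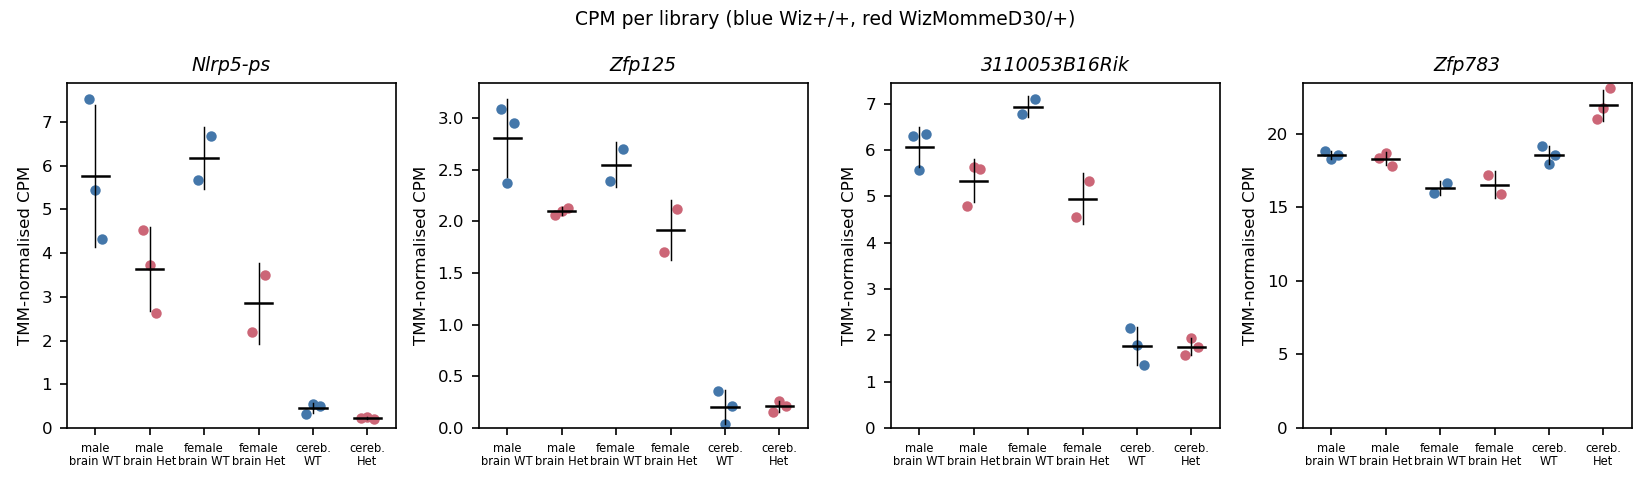
CPM of Nlrp5-ps, Zfp125, 3110053B16Rik and Zfp783 in each of the 16 libraries by group, with a horizontal line at the group mean and a vertical line of 1 SD to each side. Zfp125 shows no overlap of the genotypes in brain of either sex, Nlrp5-ps overlaps in males alone, and for Zfp783 the 3 WizMommeD30/+ cerebellums lie at 20.99 to 23.1 CPM above the 3 Wiz+/+ cerebellums at 17.9 to 19.1 CPM.

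The common start window of Zfp125 and 3110053B16Rik, from 250 bases before to 50 bases after the annotated start, chr12:20921213-20921512 on the minus strand, held 30 CpG and 71.0% G and C. It is printed because 14 other promoter windows of the RefSeq table resembled it over at least 150 bases at 71.6 to 78.8% identity, all on chromosome 12, the closest being that of 1700030C10Rik. Capitals mark CpG.
Zfp125: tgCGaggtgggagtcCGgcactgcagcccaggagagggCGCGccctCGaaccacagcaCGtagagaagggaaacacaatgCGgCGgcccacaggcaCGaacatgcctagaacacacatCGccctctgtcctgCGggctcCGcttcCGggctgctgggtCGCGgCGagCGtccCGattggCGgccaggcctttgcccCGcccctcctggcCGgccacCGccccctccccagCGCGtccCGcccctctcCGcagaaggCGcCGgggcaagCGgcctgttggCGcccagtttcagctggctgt

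The start windows of the members as a whole had a median of 9.5 CpG and 59.5% G and C, beside 7 CpG and 52.7% for 32851 promoter windows of the same length in RefSeq. At least 10 CpG were found for 11 of 22 members and in 43.5% of the RefSeq windows. The core of the CTCF motif, searched on both strands, was in 1 member's window, that of Tmem181b-ps, and in 3.43% of the RefSeq windows. Some members carried a copy of the coding relative's own start. The window of 2700099C18Rik matched that of Ndc80 at 89.6% identity, and the window of 1810014B01Rik that of 1190007I07Rik at 82.4%. Ube2d-ps and Tmem181b-ps had no other RefSeq promoter alike over that length.

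Of the other members below an unadjusted p of 0.05 in brain, Ppp4r1l-ps, a copy named after a regulatory subunit of protein phosphatase 4, was the most abundant. It was at 52.0, 57.8 and 56.8 CPM in Wiz+/+ and at 63.6, 59.8 and 58.8 CPM in WizMommeD30/+ male brains, without overlap. The difference was small, with a log2 fold change of 0.14 (SE 0.0489, edgeR adjusted p = 0.478) in males and 0.03 (SE 0.0789) in females.

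2700099C18Rik, a copy of the kinetochore gene Ndc80, had a log2 fold change of 0.17 (SE 0.0784, edgeR adjusted p = 0.584) in male brain. 1810014B01Rik had -0.28 (SE 0.11, edgeR adjusted p = 0.342) in brain of both sexes. Gm6939, a copy of the sulfotransferase gene Sult1a1, had 0.58 (SE 0.256) in males and -0.67 (SE 0.323) in females, so that its signs were opposite. The test of that difference between the sexes gave 1.26 (SE 0.367, edgeR adjusted p = 0.985).

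Over all members, 0 of 22 passed the test of a difference between the sexes, beside 0.0% of 17620 genes, and 1 had an unadjusted p below 0.05, beside 3.98% of all genes. DESeq2 also gave 0 members, with 0 at an unadjusted p below 0.05. Of the tests of a difference between brain and cerebellum in males, 0 of 22 passed, beside 0.26% of 17337 genes, and 2 had an unadjusted p below 0.05, beside 9.72%. DESeq2 gave 0 and 2 there.

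In cerebellum the smallest p belonged to Zfp783 (chr6:47943171-47955913, plus strand), a pseudogene of the zinc finger family beside its relative Zfp212. It was at 19.1, 17.9 and 18.6 CPM in Wiz+/+ and at 20.99, 21.8 and 23.1 CPM in WizMommeD30/+. All 3 WizMommeD30/+ cerebellums were above all Wiz+/+ cerebellums. The log2 fold change was 0.25 (SE 0.0567, edgeR adjusted p = 0.0178), a fold of 1.19 with an interval of 1.09 to 1.29, so the adjusted p was below 0.05 while the fold did not reach the limit. By adjusted p alone, 5.25% of all genes were past 0.05 in cerebellum, and Zfp783 was the single member among 20. Without single libraries its edgeR adjusted p ran from 0.0327 to 0.0804, and it was above 0.05 without Wiz+/+ replicate 3 (0.0804) and without WizMommeD30/+ replicate 3 (0.0614).

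In brain, Zfp783 had a log2 fold change of -0.0053 (SE 0.0413) with both sexes. The difference between cerebellum and male brain was 0.27 (SE 0.0752, edgeR adjusted p = 0.186). Zfp212 had 0.06 (SE 0.053) in cerebellum, and Zfp956, which shares 4.23% of the exonic bases of Zfp783, had 0.08 (SE 0.0417).

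BC064078, a copy of the lectin gene Clec2d, was at 4.48, 5.64 and 5.61 CPM in Wiz+/+ and at 4.51, 4.81 and 3.58 CPM in WizMommeD30/+ cerebellums, which overlapped. Its log2 fold change was -0.29 (SE 0.132, edgeR adjusted p = 0.237) in cerebellum and 0.37 (SE 0.21, edgeR adjusted p = 0.674) in male brain, with a difference of -0.66 (SE 0.258, edgeR adjusted p = 0.388). Clec2d had -0.40 (SE 0.136, edgeR adjusted p = 0.0979) in cerebellum. Gm20257, a copy of part of the caspase gene Casp8, had -0.44 (SE 0.235, edgeR adjusted p = 0.313). Both values moved with single libraries. Over the 6 fits that each left out 1 cerebellum, BC064078 ran from -0.39 to -0.16 (edgeR adjusted p 0.142 to 0.556), the value nearest 0 being that without WizMommeD30/+ replicate 3. Gm20257 ran from -0.77 without WizMommeD30/+ replicate 3 to -0.26 without WizMommeD30/+ replicate 2 and -0.23 without Wiz+/+ replicate 1 (edgeR adjusted p 0.0879 to 0.715). No cerebellar difference of a member thus passed both limits. Among the markers of other cells, 2 choroid plexus genes summed to 1630 to 1844 CPM in Wiz+/+ and 884.9 to 1908 CPM in WizMommeD30/+ cerebellums, and 4 blood genes to 139.6 to 219.3 and 256.1 to 460.5 CPM. The 2 endothelial genes summed to 38.1 to 41.2 and 34.5 to 35.1 CPM and the 6 embryonic brain genes to 59.97 to 64.2 and 49.0 to 58.1 CPM. Blood, endothelial and embryonic brain genes thus did not overlap between the genotypes, beside 24.0% of all genes. The choroid plexus, oligodendrocyte, microglia and cerebellar lists overlapped. The part of other cells in the values of these members was not tested.

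The coding relatives were tested in the same fits. Of those that passed the filter, 0 of 16 were called in male brain, 0 of 17 in female brain, 1 of 16 in cerebellum and 0 of 17 in brain of both sexes by edgeR. Over all genes the shares called were 0.184%, 0.111%, 0.832% and 0.346%. Those at an unadjusted p below 0.05 numbered 1, 3, 3 and 3 (6.25%, 17.6%, 18.8% and 17.6%), beside 8.45%, 6.4%, 19.9% and 11.8% of all genes. Counts this small are not a result about the relatives. The called gene was Sult1a1, at 6.43 to 7.40 CPM in Wiz+/+ and 8.01 to 9.78 CPM in WizMommeD30/+ cerebellums, with a log2 fold change of 0.40 (SE 0.0964, edgeR adjusted p = 0.0243). Gm6939, its pseudogene 11.03 kb away, had 0.02 (SE 0.186).

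The members were also split by how well reads can be placed. The 3 members with under 50% of windows found once had medians of -0.02 in the brain of males, -0.12 in that of females and 0.03 in cerebellum, and the other 19 had -0.02, 0.0018 and 0.03. Wiz lies on chromosome 17, and 4 members lie on the same chromosome. They were Gm18733 at 2.92 Mb from Wiz, Gm10499 at 3.79 Mb, Tmem181b-ps at 25.9 Mb and 2700099C18Rik at 62.4 Mb, and edgeR called 0 of them in any comparison between genotypes.

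The 4 genes of the type that were left out are given for reference. In male brain the log2 fold change was -0.82 for 2610005L07Rik, -0.67 for 6820431F20Rik, -0.64 for Pisd-ps1 and -0.39 for Pisd-ps2. The first 3 were called and Pisd-ps2 was not (edgeR adjusted p = 0.191). In cerebellum the values were -0.58, -0.61, -0.21 and -0.06, with the first 2 called. With these genes put back, 3 of 26 were called in male brain and 3 of 26 in female brain, beside 0.184% and 0.111% of all genes tested. The median of the 26 was -0.053 and -0.114. Only 22.1% of the windows of 2610005L07Rik and 18.3% of those of 6820431F20Rik were found once in the genome. Each of these 2 shared more windows with the other than with any other gene. Whether their calls are separate was not tested. The count of members called thus depends on which genes were left out, and the 22 that remain cannot show that the class does not respond.

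The other pseudogene types over the same count threshold were not trimmed in this way and are set beside the members as counts. Of unprocessed pseudogenes without annotated transcription, 3 of 26 were called in male brain (11.5%), 2 of 26 in female brain (7.69%) and 4 of 24 in cerebellum (16.7%), all lower in WizMommeD30/+. Of processed pseudogenes 1 of 125 was called in male brain, 0 of 125 in female brain and 0 of 114 in cerebellum, and of transcribed processed pseudogenes 1 of 30, 1 of 30 and 1 of 26. Of protein-coding genes 0.127% were called in the brain of males, 0.0562% in that of females and 0.772% in cerebellum. The medians of the types were -0.0744, 0.0023 and 0.0047 in male brain for unprocessed, processed and transcribed processed pseudogenes.

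The called genes of these types were few, and they are named here after their values were seen. Those called in male brain were also listed by the study as lower in male WizMommeD30/+ brain. The 3 unprocessed pseudogenes called in male brain, Gm6483 with -0.74, Gm21092 with -0.83 and Gm21811 with -0.70, lie in 0.9 Mb of chromosome 8 (chr8:19682449-20582771) that also holds 2610005L07Rik and 6820431F20Rik. Of their windows 87.3%, 26.3% and 12% were found once in the genome. The transcribed processed pseudogene was Rps4l, a copy of a ribosomal protein gene, with -1.26 (SE 0.0791, edgeR adjusted p = 1.2e-05) in the brain of males, -1.62 in that of females and -1.04 in cerebellum. The processed pseudogene was Gm10557, with -0.71 (SE 0.0798, edgeR adjusted p = 0.00158) in male brain and 43.7% of its windows found once. GENCODE M21 has Gm10557 on chromosome 18. The study placed it in a cluster on chromosome 8 with Gm6483, Gm21092, Gm21811, 2610005L07Rik and 6820431F20Rik. It judged an effect of Wiz on several genes of that cluster very likely, while some of the changes could be mapping artefacts. In cerebellum the lowest of the 4 unprocessed pseudogenes called was Gm45351 (chr7:9868880-9876966), away from the stretch on chromosome 8, with -1.37 (SE 0.252, edgeR adjusted p = 0.00549) and 4.71% of its windows found once. The median share of windows found once was 29.2% over the 26 unprocessed pseudogenes and 94.98% over the members.

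**Figure D3:**
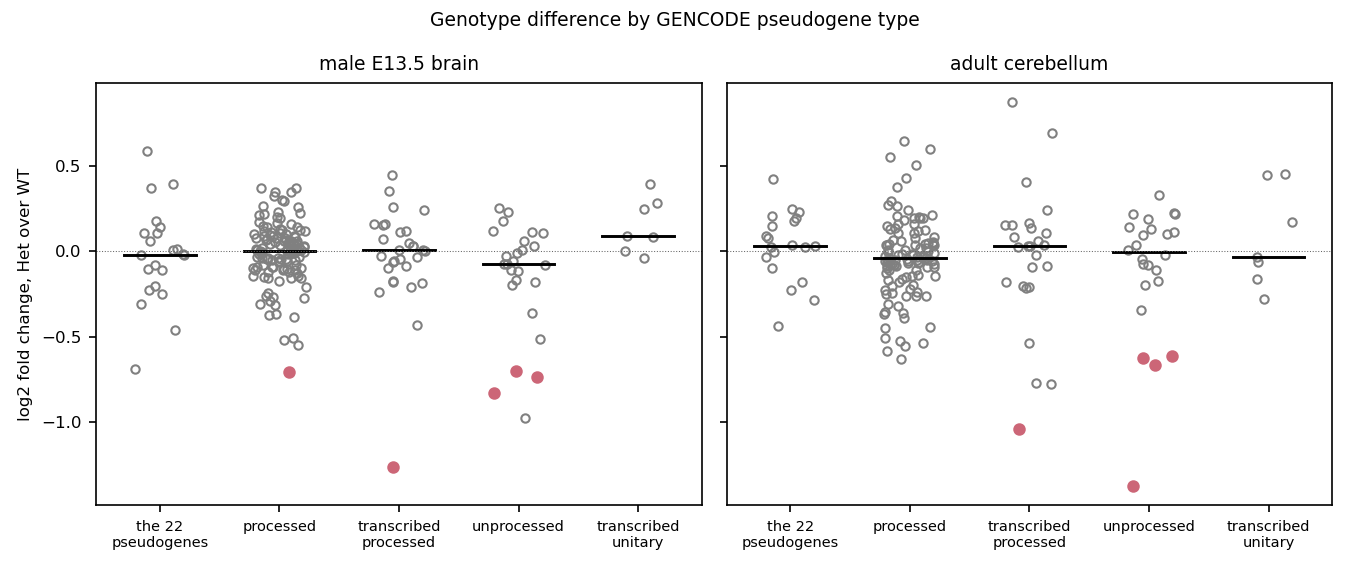
Log2 fold change of WizMommeD30/+ over Wiz+/+ of each gene, by pseudogene type, in male brain and in cerebellum, with filled points for genes past the threshold and a line at the median of each type. The members hold no filled point in either panel, and the unprocessed type holds 3 in male brain and 4 in cerebellum.

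The members differed more between the tissues than between the genotypes. Tissue, age and any difference in handling cannot be told apart, and the libraries are those that chose the members, so what follows is a description. In Wiz+/+ males 16 of 22 members (72.7%) were past the threshold between cerebellum and E13.5 brain, beside 69.3% of 16840 genes. Of these, 7 were lower and 9 higher in cerebellum, beside 32.9% and 36.4% of all genes.

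Those lower in cerebellum included Zfp125, Nlrp5-ps and 3110053B16Rik. Zfp125 and Nlrp5-ps reached the count threshold in brain alone, so their direction was partly set by the choice of members. Zfp125 was at 0.0370 to 0.361 CPM in Wiz+/+ cerebellum and at 2.38 to 3.09 CPM in brain, a log2 fold change of -3.79 (SE 0.317). Nlrp5-ps was at 0.325 to 0.556 CPM against 4.33 to 7.53 CPM, with -3.68 (SE 0.278). 3110053B16Rik was at 1.36 to 2.17 CPM against 5.56 to 6.34 CPM, with -1.80 (SE 0.147).

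2700099C18Rik was at 0.643 to 0.794 CPM in cerebellum and at 8.28 to 9.37 CPM in brain, with -3.58 (SE 0.141). Its relative Ndc80, which is needed to attach chromosomes to the spindle of dividing cells, had -7.16 (SE 0.211). Ppp4r1l-ps, Zfp939, a zinc finger pseudogene, and Gpr137b-ps, a copy of a gene for a membrane protein, differed less, with -0.67, -0.61 and -0.57.

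Gm20257 was at 1.5 to 2.35 CPM in cerebellum and at 0.290 to 0.441 CPM in brain, with 2.32 (SE 0.254). BC064078 was at 4.48 to 5.64 CPM against 0.885 to 1.295 CPM, with 2.26 (SE 0.169). Tmem181b-ps was at 38.0 to 40.0 CPM against 9.92 to 11.9 CPM, with 1.85 (SE 0.0716). These 3 did not overlap between the tissues. Gm20257, like Gm6939 below, reached the count threshold in cerebellum alone, so its direction was partly set by the choice of members.

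The other members higher in cerebellum were Gm6939 with 1.95, Gm8995, a copy of the interferon-inducible GTPase gene Gvin1, with 1.58, Ube2d-ps with 0.92, Gm7609 with 0.69, Gm10499, a copy of a class I histocompatibility gene, with 0.60 and Gm6264 with 0.57. Not past the threshold were A330044P14Rik with -0.47, Spr-ps1 with -0.36, AW822252 with 0.47, 1810014B01Rik with -0.06, Gm18733 with -0.09 and Zfp783 with -0.0047. Zfp783 stood at a mean of 18.5 CPM in both tissues.

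**Figure D4:**
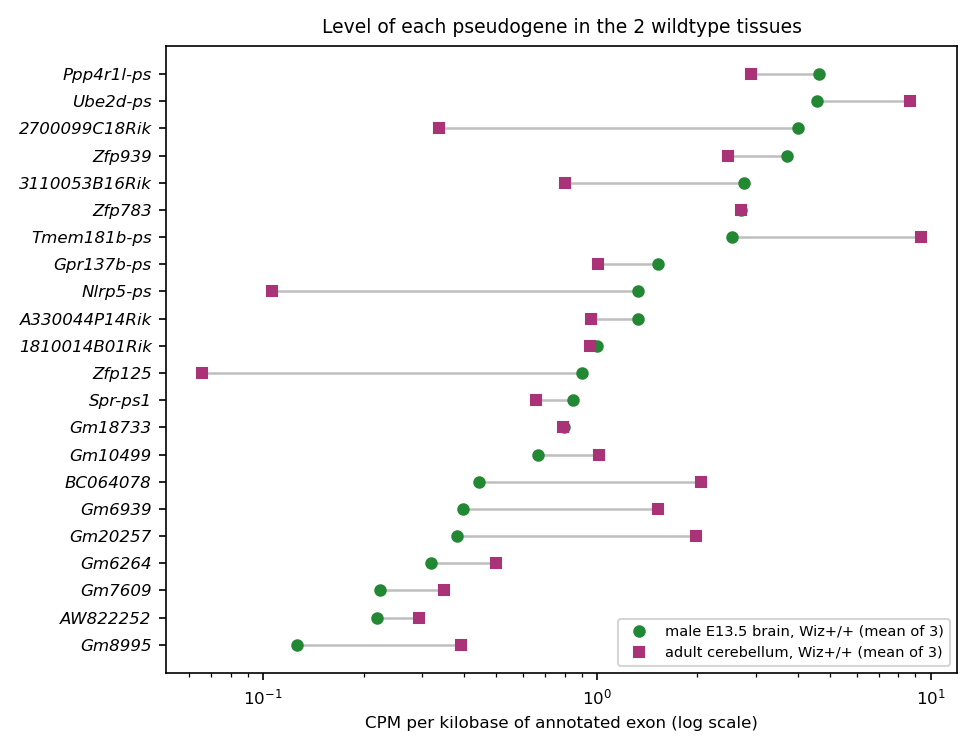
Mean CPM per kb of exon, on a log axis, of each member in Wiz+/+ male E13.5 brain and in Wiz+/+ cerebellum (3 libraries each). Brain is led by Ppp4r1l-ps at 4.62 and Ube2d-ps at 4.58, cerebellum by Tmem181b-ps at 9.37 and Ube2d-ps at 8.67, and Zfp125 spans 0.902 to 0.0657.

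Levels between genes were compared per kb of exon. In brain the highest CPM per kb were those of Ppp4r1l-ps with 4.62, Ube2d-ps with 4.58, 2700099C18Rik with 4.02 and Zfp939 with 3.72. In cerebellum Tmem181b-ps with 9.37 and Ube2d-ps with 8.67 stood apart from the third, Ppp4r1l-ps with 2.89. 2700099C18Rik moved from the third place in brain to place 19 of 22 in cerebellum, at 0.337 CPM per kb. The lowest in brain was Gm8995 with 0.126 and the lowest in cerebellum Zfp125 with 0.0657.

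Tmem181b-ps is nearly identical to its relative. It matched Tmem181a, a gene for a membrane protein 130.2 kb away, at 99.4% identity over its whole transcript, and a stretch of 120 bases at chr17:6449438-6449450 and chr17:6448807-6448913 on the minus strand had no difference. That stretch is shown because a read inside it fits both genes.
Tmem181b-ps and Tmem181a: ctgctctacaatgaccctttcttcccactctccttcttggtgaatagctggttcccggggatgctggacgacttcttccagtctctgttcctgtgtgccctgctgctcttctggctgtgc

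Tmem181a had a tissue log2 fold change of 1.00 (SE 0.0766), in the direction of its pseudogene with 1.85. The part of reads of the coding gene in the value of Tmem181b-ps was not tested. Over the 17 pairs of member and relative that could be tested, the sign was shared by 10. Both were past the threshold in 10 pairs, in the same direction in 7 and in opposite directions in 3. Spearman's rho of the 2 log2 fold changes was 0.25 over the 17 pairs, given as a description since the points share libraries.

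The opposite pairs were Gm20257 with 2.32 beside Casp8 with -1.51, Ube2d-ps with 0.92 beside Ube2d1 with -0.95 and 3110053B16Rik with -1.80 beside Hpcal1 with 3.35. Hpcal1 was at 268.9 to 289.5 CPM in Wiz+/+ cerebellum and at 26.8 to 27.4 CPM in male brain, while its pseudogene was higher in brain. Ube2d1 was at 65.0 to 66.6 CPM in cerebellum and at 123.8 to 129.3 CPM in brain, while Ube2d-ps was at 25.8 to 27.5 and at 14.1 to 14.2 CPM. Ube2d-ps shares 3.61% of its exonic bases with Urgcp on the opposite strand. Urgcp was at 61.0 to 63.7 CPM in Wiz+/+ cerebellum and at 26.9 to 29.5 CPM in male brain. The part of its reads in the values of Ube2d-ps was not tested. These pairs were picked for their opposite directions, beside 7 pairs called in the same direction. The direction of Gm20257 was partly set by the count threshold. The relative is the best match alone, since 8 coding genes met the limits of a match for Ube2d-ps and 6 for 3110053B16Rik.

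**Figure D5:**
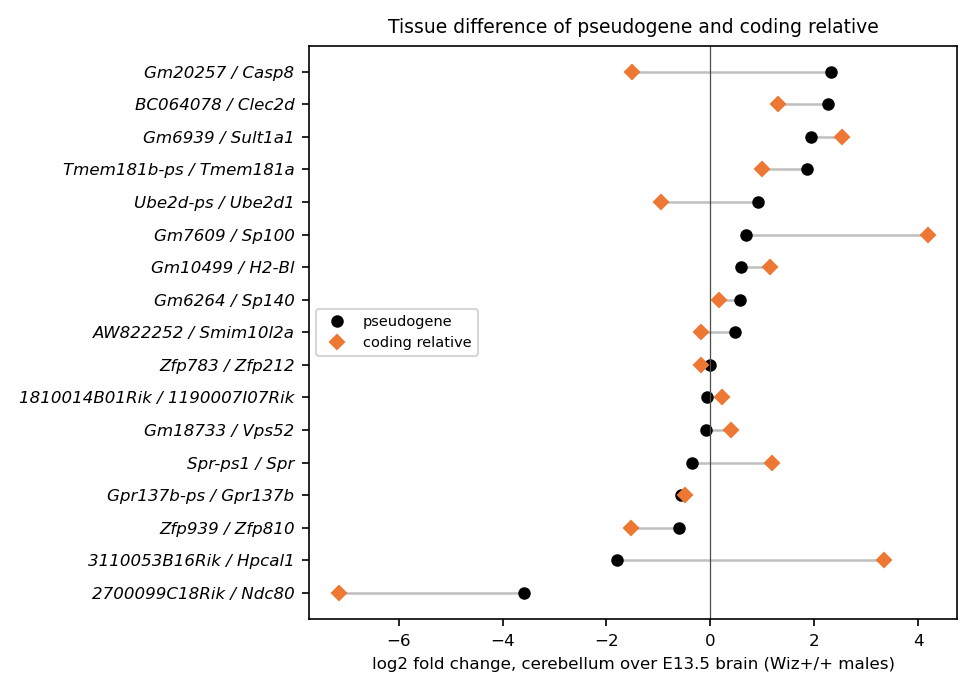
Log2 fold change between Wiz+/+ cerebellum and male E13.5 brain of 17 members (circles) and of the coding relative of each (diamonds), joined by a line. The widest gap is that of 3110053B16Rik at -1.80 and Hpcal1 at 3.35, and Gpr137b-ps at -0.57 lies close to Gpr137b at -0.48.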

How the data were processed

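Poly-A RNA of whole E13.5 brain and adult cerebellum was made into libraries with a TruSeq kit and sequenced as single reads of 100 bases. The authors mapped the reads to mm10 with TopHat2 2.0.11 and counted them per gene with HTSeq 0.6.1, and the deposited values are raw read counts per Ensembl gene for 16 samples. The counting mode and strand setting are not given in the sources used here. The 3 ChIP-seq samples were not analysed here. The members, gene lists and tests were chosen with earlier results of these data known.

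Gene types, positions and symbols came from GENCODE M21 (GRCm38). Identifiers not found there held 0.131 to 0.171% of the counts of a library. Genes were filtered with filterByExpr (minimum count 10), scaled by TMM and tested over the whole table with edgeR 4.0.16 (R 4.3.3), each comparison among its own samples, with Benjamini-Hochberg adjustment. The fold limits of 0.7 and 1.3 and the adjusted p of 0.05 are those of the study's methods. Tests of a difference between sexes or tissues used the adjusted p alone. The standard error is the log2 fold change over the square root of F. Alternatives were DESeq2 1.42.0, its size factors, other filters on counts, adjusted p alone, a replicate block, the left-out genes included and each library left out in turn. The scripts were tested on simulated counts.

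Coding relatives were found with BLAST 2.17.0 against GENCODE coding sequences, and exon overlaps with bedtools 2.31.1. Windows of 100 bases were looked up in the 66 sequences of the genome. Promoter windows for comparison came from RefSeq (GRCm38), and 1 member had an entry there, so that members' windows were read from the genome at the annotated gene end. The window of 1 member is not reported on its own here. Named were members past the threshold, the 3 members with the smallest p in each comparison between genotypes, the 8 with the highest mean CPM, the 6 called members with the largest rise and the 6 with the largest fall between tissues, and the 3 on each side of the count threshold. Other genes were named after their values were seen. Each sample is a library of its own by the labels, and no libraries held identical values. The labels do not say how samples were drawn from litters, so p-values measure the spread between these samples.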

Additional observations from a re-analysis of the deposited data

Results flagged for a closer look

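In each brain genotype, with both sexes in 1 group, the highest and lowest library of each member were compared with the other 4. In 3 of 44 such groups 1 library stood apart by Dixon's test, whose critical value for 5 samples is 0.71. Chance alone flags about 1 in 20 groups. Gpr137b-ps was at 7.76 CPM in male Wiz+/+ brain 2, the library with the fewest reads, where the next highest was 6.91 CPM (gap of 0.735 of the range). Zfp125 was at 1.71 CPM in female WizMommeD30/+ brain 1, below the next lowest at 2.06 CPM (0.833 of the range). Gm18733 was at 1.08 CPM in male WizMommeD30/+ brain 3, above the next highest at 0.694 CPM (0.78 of the range). Without single libraries, the log2 fold change of Zfp125 in brain of both sexes ran from -0.49 to -0.39 and its edgeR adjusted p from 0.0737 to 0.344.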

How the results depend on the processing

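The count of members past the threshold was 0 in the comparisons between genotypes and rose to 1 with no filter on low counts in male brain and in brain of both sexes, with DESeq2 in female brain and in brain of both sexes, and with 1 library left out in female brain and in brain of both sexes (range 0 to 1 for each). That member was Nlrp5-ps. By adjusted p alone it was 1 in cerebellum, Zfp783. With the left-out genes it was 3 in male, female and both-sex brain and 2 in cerebellum. The cause of these shifts was not tested. Without single libraries the count stayed at 0 in male brain and cerebellum. In the comparison of tissues the count of 16 ran from 15 to 18.

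The members' median log2 fold change moved, without single libraries, from -0.0551 to 0.00562 in male brain, -0.128 to -0.0109 in female brain, 0.0106 to 0.0687 in cerebellum and -0.0284 to 0.0104 in brain of both sexes. With an average count or a mean raw count of at least 50 it was 0.0193 in female brain, and 0.0772 and 0.076 in cerebellum. With the left-out genes it was -0.053 in male, -0.114 in female and -0.0828 in both-sex brain. Between tissues it was -0.461 with an average count of at least 50, beside -0.0344. Of the log2 fold changes of single members recomputed, 321 kept their side of the threshold, 9 passed it anew and 0 changed direction. Recomputed were members with an unadjusted p below 0.05 or the smallest p between genotypes, and those with the largest tissue differences. Because they were chosen for differing most, the 0 says nothing about the other members.

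Over all genes, the 31 calls in male brain became 175 without the filter and 20 to 117 without single libraries (20 without male Wiz+/+ replicate 1, 117 without male WizMommeD30/+ replicate 3). The 19 in female brain became 32 with DESeq2 and 0 to 261 without single libraries (0 without either WizMommeD30/+ replicate, 261 without Wiz+/+ replicate 1 and 40 without replicate 2), the 133 in cerebellum became 839 by adjusted p alone, 211 without the filter, 80 with DESeq2 and 70 to 153 without single libraries, and the 61 in both-sex brain became 101 without the filter. The 45 genes differing between tissues in their genotype effect became 416 without the filter, 121 with DESeq2 and 14 to 103 without single libraries, and the 0 differing between sexes became 1 without the filter, 1 with DESeq2 and 0 to 13 without single libraries.

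Whether replicate numbers pair the samples is not known. Deviations from the group mean of same-numbered samples correlated at -0.204 to -0.044 in male brain, -0.055 in female brain and -0.071 to 0.0 in cerebellum, and no sample's number marks a shared litter in the labels. With the replicate block, members past the threshold numbered 0, 0 and 0 in male brain, female brain and cerebellum and 1 (Nlrp5-ps, edgeR adjusted p = 0.00761) in brain of both sexes, and calls over all genes 23, 3, 144 and 46, with 13 for the difference between tissues.

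Depth limits the members with few reads. The median standard error of a member was 0.131 in male brain and 0.213 in female brain on the log2 scale, beside 0.0646 and 0.095 over all genes tested, and female brain had 2 libraries a genotype.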
